A study of Mus musculus with 24 samples.

Results

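Cholesterol biosynthesis and its control by the sterol regulatory element-binding proteins (SREBPs) were followed through 28 listed mouse genes in cultured macrophages. The genes were picked by symbol, with the older symbols Sc4mol for Msmo1 and Sc5dl for Sc5d. Of the 28 genes, 27 had a named probe set on the array, through 59 probe sets in all, and they were read against all 18193 genes tested. Acat2, the cytosolic thiolase of the pathway, was not analysed here. The remaining 18 enzymes lead from acetyl-CoA units to cholesterol, 7 genes encode the SREBPs and the proteins that hold or cleave them, and 2 genes encode proteins of sterol transport.

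Gene expression was measured on 24 Affymetrix Mouse430_2 arrays from bone marrow-derived macrophages of 6 C57Bl/6 mice, 3 Pparg+/- LysCre mice (mice 1 to 3) and 3 Pparg fl/- LysCre mice (mice 4 to 6). LysCre is Cre recombinase driven by the lysozyme gene, which acts in myeloid cells, so that all 6 mice carried LysCre and 1 non-functional Pparg allele, and the comparison was between mice whose other allele was intact and mice whose other allele was loxP-flanked. Femur marrow from each mouse was cultured for 10 days in 20 ng/ml M-CSF, without or with 20 ng/ml IL-4, and with vehicle (DMSO and ethanol) or 1 µM of the PPARγ agonist rosiglitazone (RSG). The 8 groups of genotype, IL-4 and RSG thus held 3 arrays each, and the 4 cultures of a mouse shared their marrow. The age of the mice was not given in the sources used here. IL-4 drives alternative activation of macrophages, and PPARγ is a lipid-activated nuclear receptor.

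Cholesterol is built from acetyl-CoA through mevalonate, isoprenoid diphosphates, squalene and lanosterol, and its intermediates also feed protein prenylation, dolichol and ubiquinone. SREBP-2, encoded by Srebf2, raises transcription of nearly the whole route, whereas SREBP-1, encoded by Srebf1, acts mainly on fatty acid genes. When sterols are low, SCAP escorts the SREBP precursors from the endoplasmic reticulum to the Golgi, where the proteases encoded by Mbtps1 and Mbtps2 release the active factor. When sterols are plentiful, the INSIG proteins retain SCAP in the endoplasmic reticulum, and Insig1 is itself an SREBP target.

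The values are expression ratios: the authors scaled each probe set by itself, so that levels cannot be set against each other between genes. The median over the 24 arrays was within 0.005 of 1 for 82.2% of probe sets and under 0.95 for 17.2%, among them Fdps 1438150_at with a median of 0.116, so that a ratio of 1 is not the median of every probe set. A gene's value was the mean of the log2 ratios of its probe sets. Array values are printed as ratios, in the order of mice 1 to 3 or mice 4 to 6. A gene was called changed at an adjusted p below 0.05 together with a change of at least 1.5-fold, in a limma fit over all 24 arrays and 18193 genes. The response to a factor averaged over the 4 settings of the other factors is called the mean response below. The arrays were alike in scale, with median ratios between 0.906 and 1.08. The IL-4 vehicle array of mouse 4 had a larger spread around its group means (SD 0.768 on the log2 scale) than the other 23 arrays (0.644 to 0.728). The 4 check genes of IL-4 action were called higher with IL-4. Of 8 macrophage markers, Mertk, Fcgr1 and Cx3cr1 were called lower with IL-4 and Itgam higher, with a median change of -0.42. The mean log2 ratio of the 8 ran from -0.000855 to 0.767 on the arrays without IL-4 and from -0.555 to 0.391 on those with it, while Csf1r, Adgre1 and Cd68 lay between ratios of 0.792 and 1.35 on every array. Pparg, the targeted gene, was at a ratio of 0.549 ± 0.035 in Pparg+/- vehicle cultures without IL-4 and 0.790 ± 0.267 in Pparg fl/- cultures (SD, n = 3), and at 1.73 ± 0.28 and 2.64 ± 0.69 with IL-4. With RSG it was at 0.456 ± 0.093 and 0.876 ± 0.257 without IL-4, and at 0.966 ± 0.111 and 2.38 ± 0.44 with it. Pparg was called higher in the libraries labelled Pparg fl/- with IL-4 and RSG (1.29 on the log2 scale, adjusted p = 0.026) and in the mean over the 4 settings (0.82, adjusted p = 0.0018). Whether the probe set lies in the deleted part of the gene was not analysed here, so this gene does not check the genotype labels. Fabp4, a fatty acid binding protein gene that PPARγ is known to activate, was looked at after the values of Pparg were seen. With IL-4 it was at 0.591 ± 0.087 with vehicle and 1.24 ± 0.25 with RSG in Pparg+/- cultures (1.06 on the log2 scale, adjusted p = 0.0086), and at 0.403 ± 0.037 and 0.665 ± 0.160 in Pparg fl/- cultures (0.70, adjusted p = 0.75). The RSG response of Fabp4 was not called different between the genotypes (adjusted p = 0.999 with IL-4), but its level with IL-4 and RSG was called lower in Pparg fl/- cultures (-0.90, adjusted p = 0.028).

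Promoters are shown for members that fell with IL-4, because the response of the pathway is often read through sequence motifs near the start of transcription. They were taken from RefSeq (GRCm38.p6) as the 250 bases before the annotated start, in the direction of transcription. Of the 28 genes, 24 matched, with 32 windows among them, and Fdft1, Fdps, Sqle and Stard4 had no entry. Both strands were searched for the sterol regulatory element in the single form TCACNCCAC, the CCAAT box CCAAT and the GC box GGGCGG. Matches on either strand are in capitals below, in the letters of the printed strand (ATTGG and CCGCCC are the reverse complements of the CCAAT and GC boxes). Elements that depart from TCACNCCAC were not searched for, so a window without a match may still hold one. The first 4 genes had the largest falls in the mean IL-4 response among the genes with a window at the gene start: Idi1 (chr13:8885356-8885605, plus strand), Cyp51 (chr5:4104698-4104947, minus strand), Msmo1 (chr8:64733579-64733828, minus strand) and Insig1 (chr5:28071162-28071411, plus strand). Hmgcs1 (chr13:119690101-119690350, plus strand) is added as the single member with a match to TCACNCCAC and was chosen after its sequence was seen.
Idi1: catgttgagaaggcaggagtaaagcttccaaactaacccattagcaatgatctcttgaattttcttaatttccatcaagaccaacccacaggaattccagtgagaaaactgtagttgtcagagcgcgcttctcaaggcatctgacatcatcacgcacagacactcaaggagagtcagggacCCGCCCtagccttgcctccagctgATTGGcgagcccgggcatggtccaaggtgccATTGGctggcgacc
Cyp51: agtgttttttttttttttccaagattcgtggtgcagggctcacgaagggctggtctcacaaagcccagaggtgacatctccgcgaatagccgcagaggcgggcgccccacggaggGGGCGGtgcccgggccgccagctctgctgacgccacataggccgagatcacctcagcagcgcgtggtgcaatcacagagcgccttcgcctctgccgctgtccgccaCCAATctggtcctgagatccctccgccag
Msmo1: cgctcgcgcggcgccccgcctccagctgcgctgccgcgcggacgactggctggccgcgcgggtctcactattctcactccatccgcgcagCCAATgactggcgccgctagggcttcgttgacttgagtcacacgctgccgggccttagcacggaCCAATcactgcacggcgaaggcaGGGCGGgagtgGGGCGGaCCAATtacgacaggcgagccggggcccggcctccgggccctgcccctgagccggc
Insig1: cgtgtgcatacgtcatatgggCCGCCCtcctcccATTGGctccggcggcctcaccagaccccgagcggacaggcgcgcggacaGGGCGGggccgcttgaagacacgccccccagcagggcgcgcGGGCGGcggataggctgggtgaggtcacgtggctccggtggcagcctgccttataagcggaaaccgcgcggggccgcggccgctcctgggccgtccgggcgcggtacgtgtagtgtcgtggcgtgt
Hmgcs1: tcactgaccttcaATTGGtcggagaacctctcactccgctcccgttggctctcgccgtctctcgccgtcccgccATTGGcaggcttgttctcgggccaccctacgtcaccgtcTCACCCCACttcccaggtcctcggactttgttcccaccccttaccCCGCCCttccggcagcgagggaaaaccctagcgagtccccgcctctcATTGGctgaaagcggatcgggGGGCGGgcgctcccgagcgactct
The Idi1 window held 2 CCAAT boxes in reverse, at 45 to 41 and 14 to 10 bases before the start. In Cyp51 a CCAAT box lay 29 to 25 bases before the start, and in Msmo1 there were 3, the nearest at 55 to 51 bases. In Hmgcs1 the element read TCACCCCAC at 137 to 129 bases before the start. Matches to TCACNCCAC were found in 1 of 32 member windows (3.12%), against 1.05% of all 32851 promoter windows. A CCAAT box was present in 21 windows (65.6%, against 33.8% of all windows) and a GC box in 24 (75%, against 32.7%). Among windows of protein-coding genes the shares were 35.4% for the CCAAT box and 42.6% for the GC box. None of the matches in the 5 printed sequences overlapped another. These are matches of letters, and binding was not measured.

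IL-4 lowered much of the pathway. In the mean IL-4 response 14 of 27 members were called lower and 0 higher, where 9.24% of all genes were called lower and 10.4% higher. The falls ran from 6.68-fold for Idi1 to 1.56-fold for Hsd17b7. The median over the 27 members was -0.639 on the log2 scale, against 0.125 over all genes, and 21 of 27 changes were below 0. Lower calls were made at every stage of the route, in 2 of 4 genes of the mevalonate pathway, 2 of 3 genes of the isoprenoid units, 3 of 3 genes from squalene to lanosterol, 4 of 8 genes from lanosterol to cholesterol, 2 of 7 regulators and 1 of 2 transport genes.

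In the single comparisons of IL-4 with no IL-4, 8 members were called lower in Pparg+/- vehicle cultures (6.57% of all genes were), 13 in Pparg+/- RSG cultures (6.15%), 10 in Pparg fl/- vehicle cultures (7.69%) and 10 in Pparg fl/- RSG cultures (6.94%). Called higher were 0, 0, 1 and 0 members, against 8.01%, 6.78%, 8.59% and 7.67% of all genes, and the 1 member was Mbtps1. Mvk, Pmvk, Idi1, Cyp51, Sc5d, Srebf2, Insig1 and Stard4, 8 members, were called lower in all 4 comparisons, as were 4.11% of all genes. The same 8 were the members for which each of the 12 IL-4 arrays lay below each of the 12 arrays without IL-4, a separation found for 4.78% of all genes. No member was called higher in all 4 comparisons (4.26% of all genes) or had all IL-4 arrays above the others (5.68%). Within the single comparisons, the 3 IL-4 arrays lay below the 3 others for 11 members in Pparg+/- vehicle, 14 in Pparg+/- RSG, 14 in Pparg fl/- vehicle and 15 in Pparg fl/- RSG cultures, against 13.8%, 14%, 13% and 13.3% of all genes. They lay above for 5, 5, 1 and 4 members, against 22.1%, 22.6%, 19% and 21.1%. The count of lower calls in Pparg+/- RSG cultures fell from 13 to 6 without mouse 2, where Mvd, Fdft1, Sqle, Cyp51, Msmo1, Hsd17b7 and Srebf2 lost their calls. That fit had fewer arrays per group, and the share of all genes called in it is not given here. With the mouse as a fixed block, Lss was also called in Pparg+/- RSG cultures (adjusted p = 0.022), and in Pparg fl/- RSG cultures Fdps (adjusted p = 0.037) and Lss (adjusted p = 0.047) were called and Sqle (adjusted p = 0.058) was not. Since the cultures come in bulk, fewer cells expressing a gene and less RNA per cell cannot be told apart.

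**Figure D1:**
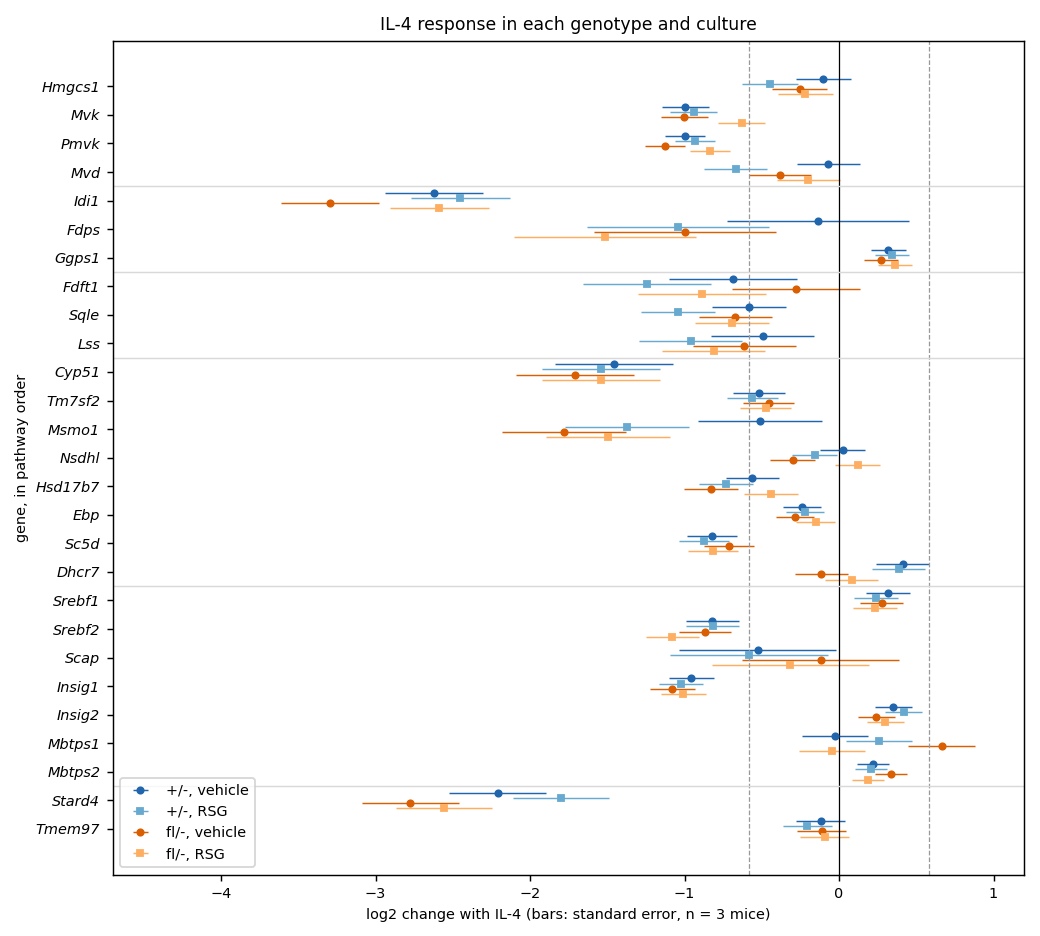
Log2 change with IL-4 (x axis) for the 27 measured genes in pathway order (y axis), with points for the 4 settings of genotype and RSG, bars for the standard error (3 mice per group) and dashed lines at a 1.5-fold change. Idi1 and Stard4 lie farthest to the left in all 4 settings, with Idi1 between -3.29 and -2.45, while Ggps1, Srebf1, Insig2 and Mbtps2 lie to the right of 0 in all 4.

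In the mevalonate pathway, Mvk and Pmvk, the kinases that add phosphate to mevalonate in successive steps, fell together. Mvk had ratios without IL-4 of 1.38, 0.975 and 1.18 in Pparg+/- vehicle cultures, 1.46, 1.52 and 1.19 in Pparg+/- RSG cultures, 1.57, 1.44 and 1.35 in Pparg fl/- vehicle cultures and 1.26, 1.3 and 1.1 in Pparg fl/- RSG cultures. With IL-4, Mvk was at 0.617, 0.566 and 0.575 in Pparg+/- vehicle cultures, 0.768, 0.629 and 0.778 in Pparg+/- RSG cultures, 0.578, 0.853 and 0.772 in Pparg fl/- vehicle cultures and 0.759, 0.846 and 0.76 in Pparg fl/- RSG cultures. All 12 IL-4 arrays lay below the arrays without IL-4, and the mean response was -0.89 ± 0.08 on the log2 scale (SE; 1.86-fold lower, adjusted p = 1.25e-08). Pmvk had ratios without IL-4 of 1.49, 1.34 and 1.15 in Pparg+/- vehicle cultures, 1.42, 1.51 and 1.45 in Pparg+/- RSG cultures, 1.32, 1.54 and 1.23 in Pparg fl/- vehicle cultures and 1.25, 1.22 and 1.23 in Pparg fl/- RSG cultures. In IL-4 cultures Pmvk was at 0.692, 0.695 and 0.598 in Pparg+/- vehicle cultures, 0.853, 0.777 and 0.679 in Pparg+/- RSG cultures, 0.518, 0.694 and 0.668 in Pparg fl/- vehicle cultures and 0.729, 0.675 and 0.672 in Pparg fl/- RSG cultures. The groups again did not overlap, and Pmvk fell 1.96-fold (-0.97 ± 0.06 on the log2 scale, adjusted p = 3.89e-10), with changes in the 6 mice between -1.07 and -0.87. Hmgcs1, the synthase at the entry to the pathway, ran from 0.925 to 1.46 (median 1.07) without IL-4 and from 0.715 to 1.22 (median 0.911) with it. Its change of -0.25 ± 0.09 (adjusted p = 0.030) was below 0 in 6 of 6 mice but short of 1.5-fold, and its 5 probe sets ran from -0.65 to -0.04. Mvd, the decarboxylase that closes this stage, ran from 0.775 to 1.85 without IL-4 and from 0.679 to 1.11 with it, so that the groups overlapped. Its mean change was -0.33 ± 0.10 (adjusted p = 0.013), and it was called in Pparg+/- RSG cultures alone (-0.67, adjusted p = 0.026), a call that was lost without mouse 2 (-0.35, adjusted p = 0.40).

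Idi1, the isomerase that interconverts the isoprenoid building units, had the largest change of all 27 members. Idi1 had ratios without IL-4 of 2.02, 2.54 and 1.98 in Pparg+/- vehicle cultures, 3.07, 3.06 and 2.61 in Pparg+/- RSG cultures, 2.5, 2.51 and 2.04 in Pparg fl/- vehicle cultures and 3.58, 2.51 and 1.34 in Pparg fl/- RSG cultures. The IL-4 arrays of Idi1 gave 0.499, 0.272 and 0.321 in Pparg+/- vehicle cultures, 0.647, 0.463 and 0.498 in Pparg+/- RSG cultures, 0.147, 0.339 and 0.272 in Pparg fl/- vehicle cultures and 0.459, 0.379 and 0.321 in Pparg fl/- RSG cultures. The lowest array without IL-4, at 1.34, stood above the highest with IL-4, at 0.647. The fall was 6.68-fold (-2.74 ± 0.16 on the log2 scale, adjusted p = 5.62e-11), and the 2 probe sets gave -2.73 and -2.75. Fdps, which joins these units into farnesyl diphosphate, was represented by 2 probe sets that disagreed. Its probe set 1423418_at ran from 1.38 to 3.13 (median 2.16) without IL-4 and from 0.302 to 0.624 (median 0.434) with IL-4, with no overlap and a fall of 4.73-fold (adjusted p = 7.18e-11 in a fit over probe sets). Its other probe set, 1438150_at, had a median ratio of 0.116 and an SD within groups of 1.10 on the log2 scale, and moved by 0.40 (adjusted p = 0.50). Fdps had ratios without IL-4 of 0.323, 0.422 and 0.273 in Pparg+/- vehicle cultures, 0.475, 0.54 and 0.331 in Pparg+/- RSG cultures, 0.532, 0.585 and 0.294 in Pparg fl/- vehicle cultures and 1.53, 0.666 and 0.365 in Pparg fl/- RSG cultures. The ratios of Fdps with IL-4 were 0.421, 0.237 and 0.282 in Pparg+/- vehicle cultures, 0.293, 0.186 and 0.179 in Pparg+/- RSG cultures, 0.345, 0.363 and 0.0916 in Pparg fl/- vehicle cultures and 0.308, 0.256 and 0.203 in Pparg fl/- RSG cultures. As the mean of both, Fdps fell 1.90-fold (-0.92 ± 0.30, adjusted p = 0.017) but was called in none of the 4 single comparisons, and the mean call was lost without mouse 2 (-0.77, adjusted p = 0.12) and without mouse 3 (-0.96, adjusted p = 0.056). Ggps1, which makes geranylgeranyl diphosphate for protein prenylation, went the other way: it was higher with IL-4 in 6 of 6 mice (0.32 ± 0.06, 1.25-fold, adjusted p = 8.04e-05), below the 1.5-fold mark, and 11 of 12 IL-4 arrays were above all arrays without IL-4.

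The step into the sterol branch is made by squalene synthase, Fdft1. Its 4 probe sets fell into tight and loose pairs. Probe sets 1438322_x_at and 1448130_at had changes of -1.56 and -1.55, and for 1448130_at the arrays ran from 1.27 to 2.44 without IL-4 and from 0.460 to 0.729 with it, without overlap. The other 2 probe sets had an SD within groups of 1.27 and 1.45 and changes of -0.17 and 0.18. The mean of all 4 gave -0.77 ± 0.21 (1.71-fold lower, adjusted p = 0.0051), and was not called without the probe sets that can match several genes (-0.68, adjusted p = 0.067). In single comparisons the mean was called in Pparg+/- RSG cultures alone (-1.24, adjusted p = 0.044), and there the call was lost with the mouse as a fixed block (adjusted p = 0.066) and without mouse 2 (-0.53, adjusted p = 0.54). Sqle, the squalene epoxidase, ran from 0.996 to 2.23 (median 1.41) without IL-4 and from 0.670 to 1.21 (median 0.831) with it, and 11 of 12 IL-4 arrays were below all others. It fell 1.68-fold (-0.75 ± 0.12, adjusted p = 3.67e-05). Lss, the cyclase that forms lanosterol, fell 1.65-fold (-0.72 ± 0.17, adjusted p = 0.0016) and was lower in 6 of 6 mice. Without mouse 4 its change was -0.56, short of 1.5-fold. Its probe sets 1426913_at and 1420013_s_at gave -0.78 and -0.76, and 1420014_at, with an SD within groups of 1.06, gave -0.63.

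Among the enzymes that convert lanosterol to cholesterol, Cyp51, the lanosterol demethylase, fell most. Cyp51 had ratios without IL-4 of 1.28, 1.73 and 1.52 in Pparg+/- vehicle cultures, 1.94, 2.19 and 1.49 in Pparg+/- RSG cultures, 1.31, 1.65 and 1.63 in Pparg fl/- vehicle cultures and 2.03, 1.23 and 1.08 in Pparg fl/- RSG cultures. With IL-4, Cyp51 was at 0.876, 0.37 and 0.506 in Pparg+/- vehicle cultures, 0.572, 0.593 and 0.755 in Pparg+/- RSG cultures, 0.515, 0.789 and 0.248 in Pparg fl/- vehicle cultures and 0.615, 0.297 and 0.6 in Pparg fl/- RSG cultures. The groups did not overlap, and the fall was 2.95-fold (-1.56 ± 0.19, adjusted p = 1.49e-06). The tightest of its 3 probe sets, 1450646_at, gave 3.88-fold. In the fit over probe sets, 1450646_at and 1422533_at were called lower in all 4 single comparisons. The other probe set, 1422534_at (SD within groups 1.31), was called in none of them. As the mean of its probe sets, Cyp51 lost calls in single comparisons when single mice were left out. In Pparg+/- vehicle cultures the adjusted p was 0.0094 with all mice, 0.19 without mouse 2 and 0.10 without mouse 3, with changes of -1.46, -1.07 and -1.39. In Pparg fl/- vehicle cultures the change went from -1.71 to -1.2 without mouse 6 (adjusted p = 0.059). In RSG cultures the adjusted p was 0.069 without mouse 1 and 0.094 without mouse 2 for Pparg+/- mice, and 0.053 without mouse 4 for Pparg fl/- mice.

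Msmo1 had ratios without IL-4 of 1.29, 1.37 and 0.881 in Pparg+/- vehicle cultures, 1.53, 1.58 and 1.5 in Pparg+/- RSG cultures, 1.37, 1.07 and 1.23 in Pparg fl/- vehicle cultures and 1.64, 1.29 and 1.73 in Pparg fl/- RSG cultures. In IL-4 cultures Msmo1 was at 0.95, 0.741 and 0.768 in Pparg+/- vehicle cultures, 0.426, 0.617 and 0.795 in Pparg+/- RSG cultures, 0.2, 0.726 and 0.304 in Pparg fl/- vehicle cultures and 0.693, 0.277 and 0.848 in Pparg fl/- RSG cultures. This methylsterol oxidase starts the removal of methyl groups that Nsdhl and Hsd17b7 continue, and 11 of its 12 IL-4 arrays were below all arrays without IL-4. The mean fall was 2.44-fold (-1.29 ± 0.20, adjusted p = 2.93e-05), with -0.51 in Pparg+/- vehicle cultures (adjusted p = 0.45) and between -1.78 and -1.37 in the other 3 comparisons. The 2 probe sets of Msmo1 differed in size and spread, with -0.97 for 1423078_a_at (SD within groups 0.18) and -1.61 for 1459627_at (SD 0.99). On 1423078_a_at alone the ratios were 1.16 to 1.70 without IL-4 and 0.513 to 0.836 with it, with no overlap.

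Sc5d had ratios without IL-4 of 1.07, 1.35 and 1.28 in Pparg+/- vehicle cultures, 1.08, 1.58 and 1.5 in Pparg+/- RSG cultures, 1.14, 1.22 and 1.26 in Pparg fl/- vehicle cultures and 1.35, 1.4 and 1.26 in Pparg fl/- RSG cultures. The IL-4 arrays of Sc5d gave 0.855, 0.638 and 0.618 in Pparg+/- vehicle cultures, 0.854, 0.677 and 0.722 in Pparg+/- RSG cultures, 0.604, 0.835 and 0.79 in Pparg fl/- vehicle cultures and 0.797, 0.759 and 0.716 in Pparg fl/- RSG cultures. Sc5d, a sterol desaturase late in the route, fell 1.75-fold without overlap of the groups (-0.81 ± 0.08, adjusted p = 1.11e-07). Of its 3 probe sets, 2 gave -1.16 and -0.93 and the other, 1424709_at, gave -0.32. In Pparg fl/- vehicle cultures its change was short of 1.5-fold without the IL-4 array of mouse 4 (-0.57).

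Hsd17b7, the ketone reductase of the demethylation steps, ran from 0.921 to 1.63 (median 1.29) without IL-4 and from 0.573 to 1.06 (median 0.840) with it, and fell 1.56-fold (-0.64 ± 0.09, adjusted p = 5.98e-06). Its 4 probe sets spread from -1.22 to 0.04. Without the probe sets that can match several genes, its change was -0.45, and with a pseudocount of 0.1 it was -0.58, and it was called in neither. Tm7sf2, a sterol reductase, was lower in 6 of 6 mice and on 11 of 12 IL-4 arrays below all others, at -0.50 ± 0.08 (adjusted p = 5.54e-05), short of 1.5-fold. With array medians centred its change was -0.59 and it was called. Ebp, the sterol isomerase, had a change of -0.22 ± 0.06 (adjusted p = 0.0064), also short of 1.5-fold. Nsdhl, the dehydrogenase of these steps, ran from 0.831 to 1.30 without IL-4 and from 0.682 to 1.16 with it, with a change of -0.08 ± 0.07 (95% interval -0.23 to 0.07, adjusted p = 0.44). Dhcr7, a terminal reductase, was at 0.19 ± 0.09 (95% interval 0.01 to 0.37, adjusted p = 0.086).

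**Figure D2:**
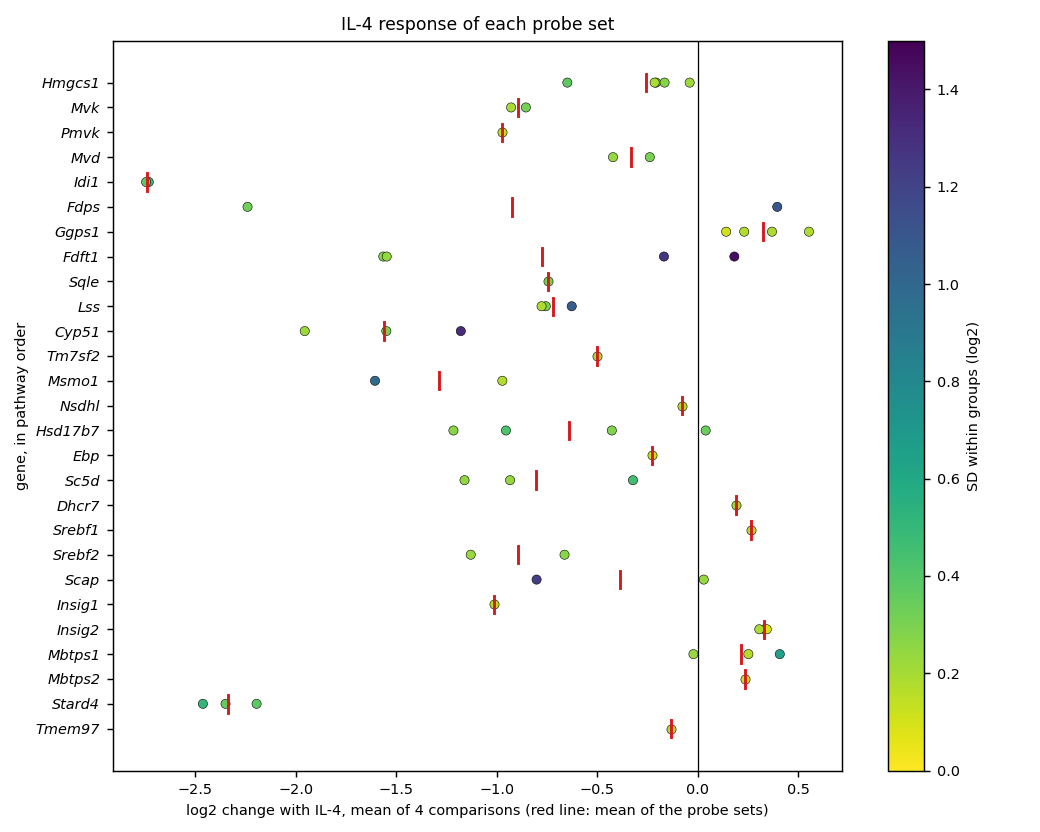
Mean log2 change with IL-4 (x axis) of each of the 59 probe sets, in rows by gene in pathway order (y axis), coloured by the SD within groups, with a red line at the mean of a gene's probe sets. The tight probe sets of Fdps and Fdft1 lie at -2.24 and near -1.55, far to the left of their loose probe sets, while the probe sets of Idi1 and Stard4 lie close together.

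Probe sets thus set the size of several changes. Of the 59, 8 had an SD within groups above 0.6 (0.634 to 1.45), and 1 of these was called in the mean response, against 25 of the other 51, all lower. When each gene was read through its tightest probe set, the same 14 genes were called lower, with Fdps at 4.73-fold, Cyp51 at 3.88-fold, Fdft1 at 2.92-fold, Hsd17b7 at 2.32-fold and Srebf2 at 2.19-fold. For Hsd17b7 this was 1457248_x_at (SD within groups 0.266), of the kind that can match several genes. Its probe set 1417871_at (SD 0.282) gave -0.43, short of 1.5-fold. With the tightest probe sets, the count in Pparg+/- vehicle cultures rose from 8 to 13, with Fdps, Fdft1, Lss, Msmo1 and Hsd17b7 added. The share of all genes called in that reading is not given here, so the rise has no background beside it.

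Of the regulators, Srebf2 and Insig1 were called lower. Srebf2 had ratios without IL-4 of 1.25, 1.2 and 1.09 in Pparg+/- vehicle cultures, 1.14, 1.52 and 1.2 in Pparg+/- RSG cultures, 1.58, 1.36 and 1.19 in Pparg fl/- vehicle cultures and 1.5, 1.53 and 1.22 in Pparg fl/- RSG cultures. The ratios of Srebf2 with IL-4 were 0.806, 0.652 and 0.561 in Pparg+/- vehicle cultures, 0.83, 0.722 and 0.636 in Pparg+/- RSG cultures, 0.759, 0.865 and 0.638 in Pparg fl/- vehicle cultures and 0.738, 0.563 and 0.715 in Pparg fl/- RSG cultures. The groups did not overlap, and Srebf2 fell 1.86-fold (-0.90 ± 0.09, adjusted p = 5.75e-08), in all 6 mice by between -1.05 and -0.54 on the log2 scale. Its 2 probe sets gave -1.13 and -0.66. Insig1 had ratios without IL-4 of 1.31, 1.27 and 1.15 in Pparg+/- vehicle cultures, 1.64, 1.67 and 1.47 in Pparg+/- RSG cultures, 1.19, 1.2 and 1.48 in Pparg fl/- vehicle cultures and 1.65, 1.33 and 1.28 in Pparg fl/- RSG cultures. With IL-4, Insig1 was at 0.72, 0.604 and 0.604 in Pparg+/- vehicle cultures, 0.852, 0.711 and 0.797 in Pparg+/- RSG cultures, 0.497, 0.706 and 0.641 in Pparg fl/- vehicle cultures and 0.8, 0.642 and 0.674 in Pparg fl/- RSG cultures. Insig1 changed evenly: the groups did not overlap, the 6 mice changed by between -1.16 and -0.90, and the 4 comparisons gave -0.96, -1.02, -1.08 and -1.01. The fall was 2.02-fold (-1.02 ± 0.07, adjusted p = 9.33e-10).

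The sister genes of both moved the other way or not at all past the threshold of size. Insig2 had ratios without IL-4 of 0.806, 0.87 and 0.915 in Pparg+/- vehicle cultures, 0.831, 0.793 and 0.815 in Pparg+/- RSG cultures, 0.969, 0.92 and 0.982 in Pparg fl/- vehicle cultures and 0.97, 0.842 and 0.935 in Pparg fl/- RSG cultures. In IL-4 cultures Insig2 was at 1.08, 1.08 and 1.15 in Pparg+/- vehicle cultures, 1.1, 1.08 and 1.07 in Pparg+/- RSG cultures, 0.887, 1.42 and 1.14 in Pparg fl/- vehicle cultures and 1.13, 1.12 and 1.13 in Pparg fl/- RSG cultures. Insig2 was higher in 6 of 6 mice (0.33 ± 0.06, 1.26-fold, adjusted p = 1.85e-04), and its 11 highest IL-4 arrays were above all arrays without IL-4, the exception being mouse 4 with vehicle at 0.887. Srebf1 had ratios without IL-4 of 0.94, 0.837 and 0.706 in Pparg+/- vehicle cultures, 0.837, 1.01 and 0.947 in Pparg+/- RSG cultures, 0.977, 0.953 and 1.05 in Pparg fl/- vehicle cultures and 0.996, 0.888 and 0.982 in Pparg fl/- RSG cultures. The IL-4 arrays of Srebf1 gave 1.03, 1 and 1.04 in Pparg+/- vehicle cultures, 1.12, 1.04 and 1.13 in Pparg+/- RSG cultures, 0.92, 1.43 and 1.32 in Pparg fl/- vehicle cultures and 1.13, 1 and 1.25 in Pparg fl/- RSG cultures. Srebf1 was higher in 6 of 6 mice as well (0.27 ± 0.07, 1.2-fold, adjusted p = 0.0048), with overlap of the groups.  Both genes stayed above 0 with array medians centred (0.24 and 0.17) and after quantile normalization (0.24 and 0.18), as did Ggps1 and Mbtps2.

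Scap had ratios without IL-4 of 1.41, 0.614 and 1.32 in Pparg+/- vehicle cultures, 1.12, 1.4 and 0.485 in Pparg+/- RSG cultures, 1.89, 1.31 and 0.864 in Pparg fl/- vehicle cultures and 0.947, 0.967 and 1.13 in Pparg fl/- RSG cultures. The ratios of Scap with IL-4 were 1.19, 0.761 and 0.424 in Pparg+/- vehicle cultures, 0.779, 0.315 and 0.922 in Pparg+/- RSG cultures, 0.899, 1.59 and 1.17 in Pparg fl/- vehicle cultures and 1.19, 1.04 and 0.434 in Pparg fl/- RSG cultures. Scap had the largest standard error of the 7 regulators, with overlapping groups and a change of -0.39 ± 0.25 (95% interval -0.92 to 0.15, adjusted p = 0.26). Of its 2 probe sets, 1433520_at (SD within groups 0.24) gave 0.03 and 1442885_at (SD 1.23) gave -0.80. Mbtps1 had ratios without IL-4 of 1.08, 1.15 and 0.978 in Pparg+/- vehicle cultures, 0.926, 0.903 and 0.77 in Pparg+/- RSG cultures, 0.725, 0.571 and 1.08 in Pparg fl/- vehicle cultures and 1.2, 1.18 and 0.819 in Pparg fl/- RSG cultures. With IL-4, Mbtps1 was at 0.977, 1.19 and 0.997 in Pparg+/- vehicle cultures, 1.09, 0.842 and 1.21 in Pparg+/- RSG cultures, 1.06, 1.54 and 1.09 in Pparg fl/- vehicle cultures and 1.17, 1.01 and 0.891 in Pparg fl/- RSG cultures. Mbtps1, the first protease, overlapped between the groups. Its call in Pparg fl/- vehicle cultures (0.66 ± 0.21, adjusted p = 0.032) came mainly from probe set 1431386_s_at (1.41). It was lost in 12 of 21 alternative settings, with adjusted p between 0.0036 and 0.49 over the 21. Among the 12 were the mouse as a fixed block (adjusted p = 0.061) and the fits without mouse 5 (0.28, adjusted p = 0.49), mouse 1 (adjusted p = 0.066), mouse 3 (adjusted p = 0.057) or mouse 4 (adjusted p = 0.077). Mbtps2 had ratios without IL-4 of 0.897, 0.862 and 0.93 in Pparg+/- vehicle cultures, 0.867, 0.893 and 0.893 in Pparg+/- RSG cultures, 0.93, 0.9 and 0.973 in Pparg fl/- vehicle cultures and 1.03, 0.887 and 1.09 in Pparg fl/- RSG cultures. In IL-4 cultures Mbtps2 was at 1, 1.06 and 1.07 in Pparg+/- vehicle cultures, 1.09, 0.978 and 0.999 in Pparg+/- RSG cultures, 1.03, 1.4 and 1.14 in Pparg fl/- vehicle cultures and 1.1, 1.18 and 1.14 in Pparg fl/- RSG cultures. Mbtps2, the second protease, was higher in 6 of 6 mice by 1.18-fold on average (0.24 ± 0.05, adjusted p = 0.0010), with overlap of the groups.

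**Figure D3:**
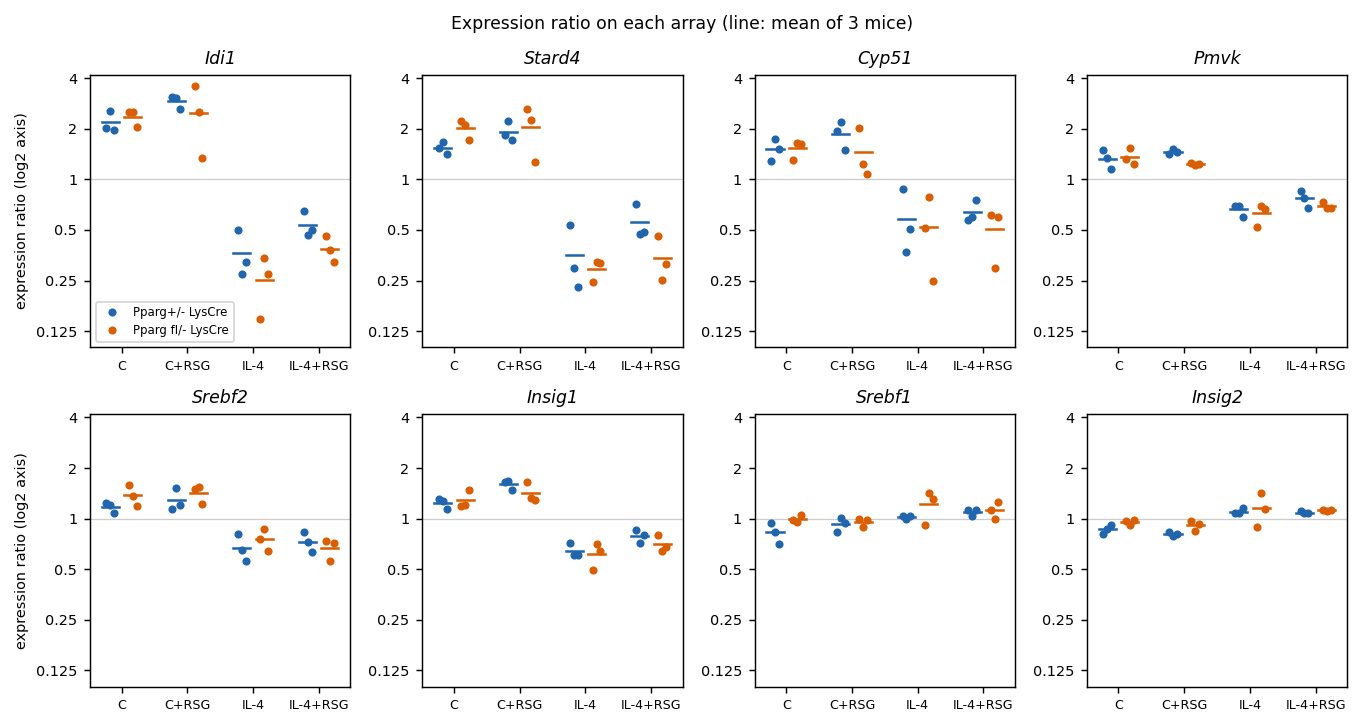
Expression ratio on each of the 24 arrays (y axis, log2 scale) for 8 genes, by culture (x axis; C is no IL-4) and genotype (colour), where each line marks a group mean. All IL-4 arrays of Idi1, Stard4, Cyp51, Pmvk, Srebf2 and Insig1 lie below all arrays without IL-4, and for Insig2 11 of 12 lie above.

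Stard4, a soluble carrier that moves cholesterol between membranes and is known as an SREBP target, had the largest fall after Idi1. Stard4 had ratios without IL-4 of 1.53, 1.67 and 1.41 in Pparg+/- vehicle cultures, 1.83, 2.21 and 1.71 in Pparg+/- RSG cultures, 2.22, 2.12 and 1.71 in Pparg fl/- vehicle cultures and 2.61, 2.26 and 1.27 in Pparg fl/- RSG cultures. The IL-4 arrays of Stard4 gave 0.534, 0.299 and 0.227 in Pparg+/- vehicle cultures, 0.712, 0.475 and 0.483 in Pparg+/- RSG cultures, 0.245, 0.324 and 0.316 in Pparg fl/- vehicle cultures and 0.462, 0.251 and 0.315 in Pparg fl/- RSG cultures. The groups did not overlap, the fall was 5.05-fold (-2.34 ± 0.16, adjusted p = 3.83e-10), and the 3 probe sets gave -2.46, -2.35 and -2.20. Tmem97, a sterol-binding protein of the endoplasmic reticulum, ran from 0.861 to 1.25 (median 1.06) without IL-4 and from 0.818 to 1.26 (median 0.946) with it, with a change of -0.13 ± 0.08 (95% interval -0.30 to 0.03, adjusted p = 0.21).

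Genes around the pathway were read from lists. Of 5 measured sterol genes outside the members (10 listed), Lbr, which encodes a nuclear envelope protein with sterol reductase activity at the step of Tm7sf2, fell 4.60-fold (-2.20 ± 0.11, adjusted p = 3.78e-12), and Mylip, a ubiquitin ligase for lipoprotein receptors, rose 1.57-fold (adjusted p = 0.0013). The lysosomal genes Npc1, Npc2 and Lipa were not called. Of 11 measured genes of SREBP processing and sterol enzyme turnover, Pgrmc1, a haem-binding protein of the endoplasmic reticulum, rose 2.31-fold, Paqr3, a Golgi protein that anchors SCAP, rose 2.92-fold and Erlin1, a membrane protein of degradation in the endoplasmic reticulum, fell 1.53-fold. Of 11 genes of the non-sterol branch, 0 were called by limma and 4 had an unadjusted p below 0.05. The median of that list was 0.09, against 0.125 over all genes.

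Of 12 lipogenic genes that SREBP-1 is known to act on, 5 were called lower and 2 higher. Fasn, the fatty acid synthase, fell 2.09-fold, Me1, the malic enzyme, 3.25-fold, and Elovl6, Fads1 and Fads2, which lengthen and desaturate fatty acids, 1.95-fold, 1.94-fold and 2.23-fold. The desaturases Scd1 and Scd2 rose 2.04-fold and 5.04-fold. Abca1 and Abcg1, the sterol exporters known as targets of the liver X receptors, rose 2.86-fold and 3.75-fold, and Nr1h3, which encodes a liver X receptor, was at 1.46-fold (adjusted p = 0.00026), short of the mark.

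Markers of dividing cells and of other marrow cells moved with IL-4 as well. All 9 measured proliferation genes were called lower (median -5.17), and their mean log2 ratio ran from 0.666 to 2.39 on arrays without IL-4 and from -3.73 to -2.52 with IL-4. Of 8 measured neutrophil genes 7 were called lower (median -4.71), with means of 0.466 to 1.61 without and -3.94 to -3 with IL-4, and S100a9 was at the floor ratio of 0.01 on all 3 IL-4 RSG arrays of Pparg fl/- mice. Of 10 stromal genes 9 were called lower (median -2.99), with means of 0.376 to 2.21 without and -1.99 to -0.804 with IL-4. Called lower were 1 of 4 B cell genes and 0 of 4 T and NK cell genes, of 5 mast cell and basophil genes 2 were called higher, and 0 of 3 adipocyte genes were called. The part of these cells in the fall of the cholesterol genes was not tested.

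No member passed both the adjusted p and the 1.5-fold threshold with RSG, though single changes exceeded 1.5-fold, such as that of Mvd below. The RSG and genotype comparisons share arrays with each other and with the IL-4 comparisons. By limma 0 of 27 were called with RSG in Pparg+/- cultures without IL-4 (0.022% of all genes were), in Pparg fl/- cultures without IL-4 (0%), in Pparg+/- cultures with IL-4 (0.39%), in Pparg fl/- cultures with IL-4 (0.0055%) and in the mean response (0.17%). At an unadjusted p below 0.05 the counts were 6, 1, 1, 2 and 5, and the methods' t-test gave 6, 0, 1 and 1 in the 4 single comparisons, with 0 after adjustment. The share of all genes at this unadjusted cut was not computed, so counts at it have no background beside them throughout. In the mean response 22 of 27 members lay above 0, with a median of 0.104 on the log2 scale against -0.00308 over all genes. With array medians centred 20 lay above 0, and 18 after quantile normalization. The 95% intervals of 21 members stayed within 1.5-fold in both directions, and over all 27 they reached from -0.87 (Scap) to 0.80 (Fdps).

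The smallest adjusted p of the mean RSG response belonged to Insig1, at 0.25 ± 0.07 (adjusted p = 0.23), whose arrays are given above. Idi1 was at 0.42 ± 0.16 (adjusted p = 0.48), Stard4 at 0.30 ± 0.16 (adjusted p = 0.72) and Dhcr7 at 0.24 ± 0.09 (adjusted p = 0.42). In Pparg+/- cultures without IL-4, the 3 RSG arrays lay above the 3 vehicle arrays for 9 of 27 members and below for 1, where 6.06% and 6.23% of all genes did so. The 9 were Hmgcs1, Mvd, Idi1, Sqle, Msmo1, Nsdhl, Hsd17b7, Insig1 and Stard4. The member with the largest change there, Mvd, was at 0.775, 1.01 and 0.796 with vehicle and at 1.37, 1.85 and 1.11 with RSG. This came to 0.72 ± 0.20 on the log2 scale (95% interval 0.30 to 1.15) with an adjusted p of 0.45. In Pparg fl/- cultures without IL-4, 1 member lay above and 1 below, against 4.92% and 3.43% of all genes. With IL-4 the counts were 2 above and 0 below in Pparg+/- cultures (6.24% and 8.44%) and 1 above and 1 below in Pparg fl/- cultures (3.95% and 3.52%). Whether RSG acted differently in the 2 genotypes was tested directly: 0 of 27 members were called without IL-4 (0.011% of all genes) and 0 with IL-4 (0%), with 4 and 0 at an unadjusted p below 0.05. For Mvd that difference was -0.84 (95% interval -1.43 to -0.24, adjusted p = 0.82). The test of RSG responses with against without IL-4 called 0 members in Pparg+/- cultures (0.0055% of all genes) and 0 in Pparg fl/- cultures (0%), with 1 and 1 at an unadjusted p below 0.05.

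Likewise, none of the 27 members passed both thresholds between the genotypes, though single differences exceeded 1.5-fold, as given below. By limma 0 were called between Pparg fl/- and Pparg+/- cultures without IL-4 and with vehicle (0% of all genes), without IL-4 and with RSG (0.011%), with IL-4 and vehicle (0%), with IL-4 and RSG (0.555%) and in the mean (0.896%). At an unadjusted p below 0.05 the counts were 2, 0, 2, 1 and 3, and the methods' t-test gave 2, 2, 0 and 2 in the single comparisons, with 0 after adjustment. The 3 Pparg fl/- arrays lay above the 3 Pparg+/- arrays for 5 members without IL-4 and with vehicle (13.9% of all genes), 2 without IL-4 and with RSG (12.6%) and 4 with IL-4 and RSG (17.6%), and below for 0, 2 and 2 (4.27%, 3.64% and 4.57%). Ggps1 and Insig2 were among those above in all 3 of these settings, which share the same mice. The share of all genes above in all 3 was not computed. With array medians centred, their mean genotype differences by limma were 0.097 (adjusted p = 0.26) and 0.046 (adjusted p = 0.71). The mean differences had a median of 0.00755 over the members, against 0.0937 over all genes, with 14 above 0 and 13 below, and the intervals of 21 members stayed within 1.5-fold. These intervals and standard errors treat the 4 cultures of a mouse as independent, with 3 mice per genotype. They may be too narrow for genes that differ between mice. The smallest adjusted p values were those of Mbtps2 (0.14 ± 0.05, adjusted p = 0.10) and Ggps1 (0.15 ± 0.06, adjusted p = 0.11). With array medians centred, Mbtps2 was at 0.088 by limma (adjusted p = 0.31). After quantile normalization Mbtps2 was at 0.075 (adjusted p = 0.40) and Ggps1 at 0.098 (adjusted p = 0.28).

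The largest genotype difference in a single setting was that of Msmo1 with IL-4 and vehicle. Its ratios were 0.95, 0.741 and 0.768 in Pparg+/- mice and 0.200, 0.726 and 0.304 in Pparg fl/- mice, without overlap, and the difference was -1.2 ± 0.40 (95% interval -2.05 to -0.36) with an adjusted p of 0.45. Without mouse 5 it was called, as 1 member against 0. The probe sets of Msmo1 differed here. On 1423078_a_at, the tighter of them, the ratios were 0.761, 0.562 and 0.672 in Pparg+/- mice and 0.513, 0.774 and 0.696 in Pparg fl/- mice, and the groups overlapped. On 1459627_at they were 1.19, 0.979 and 0.878 against 0.0783, 0.68 and 0.133, without overlap. In that setting 2 members lay below in all 3 Pparg fl/- arrays, Msmo1 and Dhcr7, where 3.05% of all genes did so, and 0 lay above (6.79%). Stard4 with IL-4 and RSG was at 0.712, 0.475 and 0.483 in Pparg+/- mice and 0.462, 0.251 and 0.315 in Pparg fl/- mice, again without overlap, at -0.72 ± 0.31 (adjusted p = 0.39). The IL-4 response itself was compared between genotypes: 0 members were called with vehicle (0% of all genes) and 0 with RSG (0.0055%), with 3 and 0 at an unadjusted p below 0.05. With 95% intervals in parentheses, this difference was for Idi1 -0.67 (-1.62 to 0.28) with vehicle and -0.13 (-1.08 to 0.81) with RSG, for Srebf2 -0.05 (-0.55 to 0.46) and -0.26 (-0.77 to 0.25), and for Insig1 -0.12 (-0.55 to 0.31) and 0.01 (-0.41 to 0.44). These intervals are wide for Idi1 and do not show that the genotypes respond alike.

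**Figure D4:**
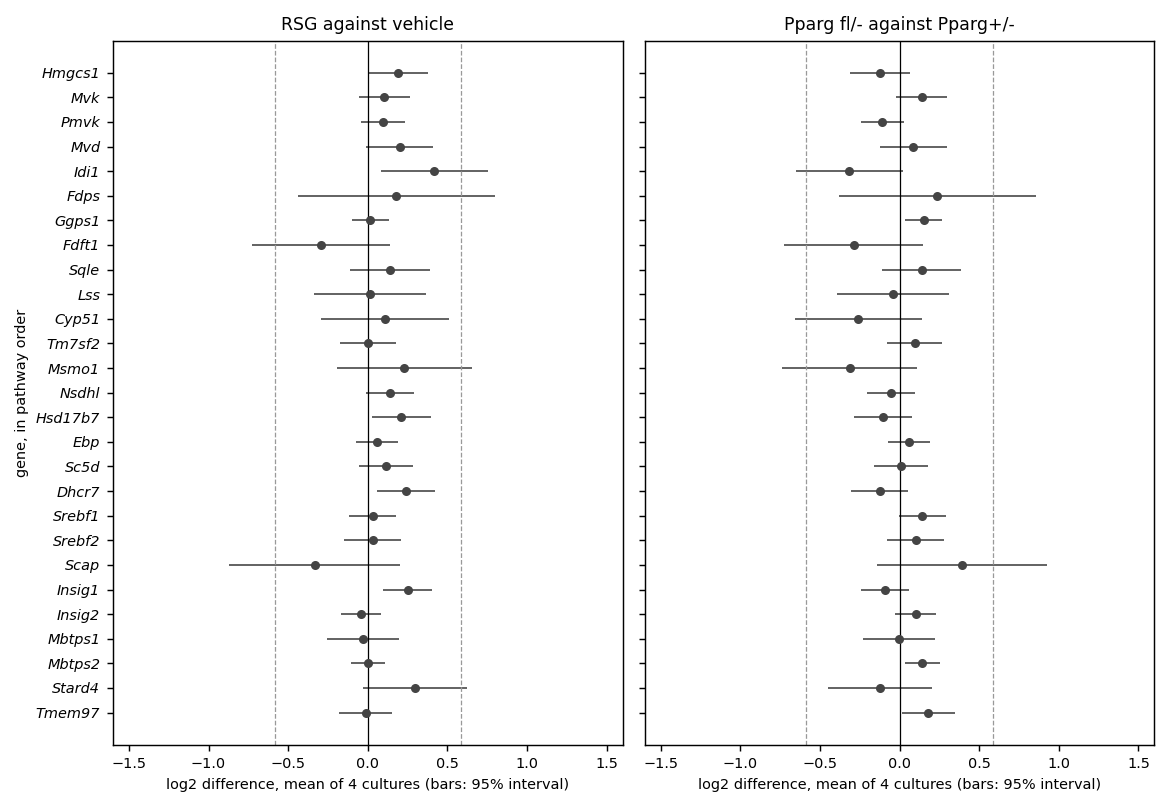
Log2 difference with RSG against vehicle (left) and in Pparg fl/- against Pparg+/- cultures (right), averaged over 4 culture settings, for the 27 genes in pathway order, with bars for the 95% interval and dashed lines at a 1.5-fold change. No member was called in either panel, and the intervals of 21 of 27 genes lie between the dashed lines in each. The intervals treat the cultures of a mouse as independent.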

How the data were processed

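Gene expression was measured on 24 Affymetrix Mouse430_2 arrays of bone marrow-derived macrophages, grouped by the deposited labels into 8 groups of 3. Per the study's methods, the authors processed the arrays by GC-RMA in GeneSpring 7.3, with GCOS also named in the submitters' processing notes, and scaled each chip to its median and each gene to its median. The deposited values are ratios on a linear scale for 45101 probe sets. With control probe sets left out, 82.2% had a median within 0.005 of 1 and 17.2% had one under 0.95. The division by vehicle controls that the methods also name was not seen in the values. Such ratios hold no absolute level, and precision is set by 3 arrays a group.

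Of the probe sets, 64 controls were left out, 34945 had 1 gene symbol in the platform annotation (34741 of them matched by gene identifier), 932 had several and 9160 had none. Ratios were floored at 0.01 (124 values) and taken to log2, and probe sets were averaged per gene over 18193 genes. limma 3.58.1 with trend (R 4.3.3, statmod 1.5.0) was fitted with a mean per group over all arrays, p-values were adjusted by Benjamini-Hochberg over all genes in each of 21 comparisons, and standard errors and 95% intervals are those of this fit. Fits over probe sets ran the same way. Tables were summarised in Python 3.11.15 with pandas 2.3.3. The fit was first run on simulated gene values with independent noise on each array and added IL-4 changes. The simulation held no mouse effect and no averaging of probe sets, so it did not test either.

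The 4 cultures of a mouse are paired by the labels. Deviations from the group means correlated little within mice (median 0.0132, from -0.0501 to 0.0565 over 36 pairs, against -0.00619 between mice), and the block correlation was 0.034, so the mouse was used as a block in an alternative.

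Array values were given for the 10 members with the largest mean IL-4 response, for the 7 regulators and for any member called with RSG or between genotypes, and promoters for up to 6 members with the largest changes. The members and all gene lists were chosen with earlier results of these data known. Alternatives were the mean of ratios per gene, 1 probe set per gene, a filter on low values, a floor or pseudocount of 0.1, centred array medians, quantile normalization, the mouse as a block, no trend, the methods' unpaired t-test and leaving out each mouse. Leaving out the IL-4 vehicle array of mouse 4 or the vehicle array without IL-4 of mouse 1, probe sets of median ratio under 0.95, or _s_at and _x_at probe sets was added after seeing the data.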

Additional observations from a re-analysis of the deposited data

How the results depend on the processing

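Under 21 alternatives, 421 counts of called members stayed within 1.5 times their value and 6 moved. For all RSG, genotype and interaction comparisons the main count was 0, and a count that stayed at 0 is among the 421. The 421 is thus no measure of how stable the IL-4 counts were. With 1 probe set per gene the count in Pparg+/- vehicle cultures with IL-4 went from 8 to 13. With the methods' t-test, which uses 3 against 3 arrays, the IL-4 counts were 5 in Pparg+/- vehicle, 3 in Pparg fl/- vehicle and 8 in Pparg+/- RSG cultures, against 8, 11 and 13, and 7 against 10 in Pparg fl/- RSG cultures. Counts in this section take calls in either direction, so the 11 includes the higher call of Mbtps1. Except with array medians centred, the share of all genes called under an alternative is not given, so these changes in count have no background beside them. Leaving out each mouse in turn gave 7 to 9 in Pparg+/- vehicle, 9 to 12 in Pparg fl/- vehicle, 6 to 13 in Pparg+/- RSG (6 without mouse 2), 7 to 11 in Pparg fl/- RSG cultures and 13 to 14 in the mean IL-4 response. The genotype count with IL-4 and vehicle was 0 to 1 (Msmo1 without mouse 5), and the other genotype counts, the RSG counts and the interaction counts were 0 each time. With array medians centred, the all-gene median of the IL-4 response in Pparg+/- vehicle cultures moved from 0.0924 to -0.013 on the log2 scale, the share of all genes called lower from 6.57% of 14.6% called to 8.11% of 14.1%, and the member count from 8 to 11. Over the named members' calls, 1090 of 1162 values kept their side of the threshold, 72 lost the call and 0 reversed. With the mouse as a replicate block the mean IL-4 response called the same 14 members. In single comparisons the fixed block gave 8, 10, 13 and 11 IL-4 calls, where Mbtps1 (adjusted p = 0.061), Fdft1 (adjusted p = 0.066) and Sqle were lost in 1 comparison each and Fdps and Lss gained. The random block gave 8, 12, 14 and 10, with Sqle and Lss gained. No other member call changed with the block. The causes of these changes were not tested.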
